A study of Mus musculus with 27 samples.

Results

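The Wnt ligands, their Frizzled receptors and the secreted proteins that tune them were followed through the differentiation of mouse embryonic stem cells with and without Zfp512b, the mouse counterpart of the zinc finger protein ZNF512B. The members were chosen by gene symbol alone. A gene was taken if its symbol was Wnt, Fzd, Dkk, Sfrp or Rspo followed by a number, with a or b after the number for Wnt genes, and if it was listed in all 8 deposited tables. This gave 41 of 25209 genes. They were 19 Wnt ligands, 10 Frizzled receptors, 4 Dickkopf factors (Dkk), 4 secreted Frizzled-related proteins (Sfrp) and 4 R-spondins (Rspo).

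Wnt proteins are secreted, lipid-modified ligands that bind a Frizzled receptor together with a co-receptor. In the canonical branch, a Frizzled and Lrp5 or Lrp6 halt the complex that destroys β-catenin, which then acts with TCF and LEF factors in the nucleus. Other Wnts, Wnt5a and Wnt11 among them, are known for β-catenin-independent signalling in cell movement and polarity. Dickkopf factors block the Lrp co-receptor, Sfrps bind Wnts outside the cell, and R-spondins keep Frizzled receptors at the surface through Lgr receptors. In embryonic stem cells the pathway is known to favour self-renewal, and in differentiating cultures it acts at several steps of mesoderm, heart and neural development.

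The study compared V6.5 cells, a mouse embryonic stem cell line, without editing (wild type, WT) and 2 knockout clones, KO #4 and KO #8. In both clones CRISPR/Cas9 had placed a triple transcription terminator behind exon 3 of Zfp512b, with mCherry or puromycin resistance as the selection marker. Each knockout is thus 1 clone, the WT cells had not been through the editing and selection, and a clone's own traits and the loss of Zfp512b cannot be told apart within it. Naive cells (Day 0; 3 libraries per group) grew in 2iLIF medium, which holds 3 µM CHIR99021, a GSK3 inhibitor that switches on the canonical pathway downstream of the receptors, in WT and knockout cells alike. Primed cells (Day 2; serum and LIF), neural progenitor cells (NPCs, Day 10; embryoid bodies with 5 µM retinoic acid) and cardiomyocytes (CMs, Day 7.5; embryoid bodies with vitamin C) were sequenced in 2 libraries per group.

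Zfp512b itself was lower in all 8 tables, with log2 fold changes between -3.15 and -1.93. The reads of each library were recovered from the deposited base means, and the library size factors lay between 0.876 and 1.11 over the 27 libraries. At the primed, NPC and CM stages the recovered genes held 11553463 to 15677203 reads per library. Below, values in a library are whole reads before scaling, and the libraries of a group are listed in the same order for every gene of a stage. The 2 KO #8 libraries of the NPC stage stood apart from each other, with 5216 and 10820 normalised reads summed over 4 neuron markers. WT cells at the CM stage held the cardiomyocyte markers (Myh6 with 11133 and 9994 reads), and KO #4 cells of that label nearly lacked them (27 and 25 reads). A gene was called at an adjusted p under 0.05 in the deposited Wald test of 1 clone against WT at that stage, and both clones share the WT libraries. Where the libraries of 2 groups are said to lie apart, the share of all genes for which this held was not counted.

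Sequences upstream of the start site are shown for 4 ligands whose levels fell in both clones in NPCs or CMs, and for Dkk1, which is known as a target of β-catenin. Each is the 250 bases before an annotated start in RefSeq, build GRCm38.p6, written in the direction of transcription. Capitals mark CTTTGA, the core of the TCF/LEF motif, or its reverse complement TCAAAG. The windows are chr4:137277385-137277634 (+ strand) for Wnt4, chr11:59306680-59306929 (+ strand) for Wnt9a, chr1:74771642-74771891 (+ strand) for Wnt6, chr7:98834862-98835111 (+ strand) for the first of the starts of Wnt11 and chr19:30549497-30549746 (- strand) for Dkk1.
Wnt4: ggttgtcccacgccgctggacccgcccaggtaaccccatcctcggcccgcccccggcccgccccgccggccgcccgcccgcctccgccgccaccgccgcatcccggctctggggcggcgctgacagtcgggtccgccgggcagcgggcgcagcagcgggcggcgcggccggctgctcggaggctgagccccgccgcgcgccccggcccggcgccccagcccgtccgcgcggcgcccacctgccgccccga
Wnt9a: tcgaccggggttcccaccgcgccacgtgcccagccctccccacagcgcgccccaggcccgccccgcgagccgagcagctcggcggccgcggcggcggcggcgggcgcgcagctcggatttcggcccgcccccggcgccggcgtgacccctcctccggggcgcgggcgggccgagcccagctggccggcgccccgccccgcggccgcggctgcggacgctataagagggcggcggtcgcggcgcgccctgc
Wnt6: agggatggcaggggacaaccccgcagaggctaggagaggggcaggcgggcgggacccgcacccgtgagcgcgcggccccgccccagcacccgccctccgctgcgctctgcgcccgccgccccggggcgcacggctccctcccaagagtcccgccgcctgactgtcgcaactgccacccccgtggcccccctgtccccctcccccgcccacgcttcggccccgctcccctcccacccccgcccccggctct
Wnt11: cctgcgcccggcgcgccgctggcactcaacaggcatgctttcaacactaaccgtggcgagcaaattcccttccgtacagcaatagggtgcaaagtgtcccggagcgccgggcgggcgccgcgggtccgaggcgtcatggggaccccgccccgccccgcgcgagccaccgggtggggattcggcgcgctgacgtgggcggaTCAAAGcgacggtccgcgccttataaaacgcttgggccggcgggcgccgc
Dkk1: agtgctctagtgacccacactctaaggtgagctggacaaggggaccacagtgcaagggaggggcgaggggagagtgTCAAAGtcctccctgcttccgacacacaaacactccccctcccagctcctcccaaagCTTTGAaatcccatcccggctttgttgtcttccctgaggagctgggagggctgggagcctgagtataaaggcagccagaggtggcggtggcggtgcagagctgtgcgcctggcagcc

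The motif stood 50 bases upstream of this start of Wnt11 and 174 and 117 bases upstream of that of Dkk1, and these letters were not in the windows of Wnt4, Wnt9a and Wnt6. RefSeq windows were at hand for 27 members with 30 starts. 4 of the 30 (13.3%; Dkk1, Fzd1, Wnt5b and Wnt11) held the motif on either strand, against 4544 of 32851 windows of all genes (13.8%), so the members did not stand out in this count. Their windows were rich in G and C (median of 68.8% against 52.4% in all windows), and the observed over expected number of CpG dinucleotides had a median of 0.765 against 0.374.

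WT cells expressed a different part of the system at each stage, and receptors and Sfrp1 were the main part of it throughout. Levels are given as normalised reads per kilobase of exon and compared within a stage only, since stages were normalised separately. In naive WT cells Sfrp1, an extracellular Wnt antagonist, held 55.7% of the members' summed reads per kilobase, followed by the receptors Fzd5 (14.5%) and Fzd10 (14.3%). The naive ligand with the highest level was Wnt5b, at 44.2 ± 4.38 reads per kilobase (SD, n = 3), and no R-spondin had a WT mean of 10 reads (Rspo1, the highest, at 3.13 ± 2.93 reads per kilobase, SD, n = 3). The highest Dickkopf factor was Dkk3 at 114 ± 10.8 reads per kilobase (SD, n = 3).

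In primed WT cells Fzd7 led with 713.0 ± 29.2 reads per kilobase (SD, n = 2), ahead of Fzd5 (19.4% of the summed level) and of Sfrp1 at 355 ± 1.07 (SD, n = 2). The highest primed ligand per kilobase was Wnt8a, at 22.9 ± 0.788 reads per kilobase (SD, n = 2). By normalised reads alone the highest was Wnt5a, at 56.5 ± 3.33 reads (SD, n = 2), which is 7.23 ± 0.426 per kilobase. Dkk3 was at 22.4 ± 2.30 reads per kilobase and Rspo1 at 30.4 ± 2.83 (SD, n = 2).

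In NPCs Sfrp1 led again with 3175 reads per kilobase (29.0% of the members' sum), and Wnt4, the highest ligand, was at 901 ± 21.3 (SD, n = 2) beside Fzd7 at 1643 ± 78.5 (SD, n = 2). The highest R-spondin, Rspo1, held 2.29% of that sum, and Dkk3 was at 66.3 ± 6.74 reads per kilobase (SD, n = 2). In CMs Fzd2 was at 1106 ± 144 reads per kilobase (SD, n = 2), Fzd7 at 936 ± 113 and Sfrp1 at 477 ± 78.0 (SD, n = 2). In the same cells the Dickkopf factor Dkk1 was at 285 ± 12.6 reads per kilobase (SD, n = 2), the ligands Wnt2 at 154 ± 9.33 and Wnt5a at 139 ± 1.42 (SD, n = 2), and Rspo3 at 173 ± 12.8 (SD, n = 2). A WT mean of at least 10 reads was reached by 22 members in naive cells, 22 in primed cells, 33 in NPCs and 33 in CMs.

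The members were called 94 times over the 8 tables, and 36 of the 41 were called at least once. The other 5 (Wnt3, Wnt8a, Wnt16, Dkk4 and Sfrp4) were called in none, and of these Wnt16 and Dkk4 were low throughout, with group means under 10 reads. 19 members were called in both clones in 1 direction at a stage, and 3 of them at more than 1 stage (Wnt7b in naive cells and NPCs, Wnt9a in NPCs and CMs, Sfrp1 in naive cells and CMs). Few members passed at the primed stage and most at the CM stage, but the share of all genes called also varied. It ran from 9.87% in NPCs of KO #8 to 45.7% in CMs of KO #4. This share is given beside the member counts of each clone and of both clones at a stage. For the totals in this paragraph and for members called in 1 clone alone, it was not counted.

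**Figure D1:**
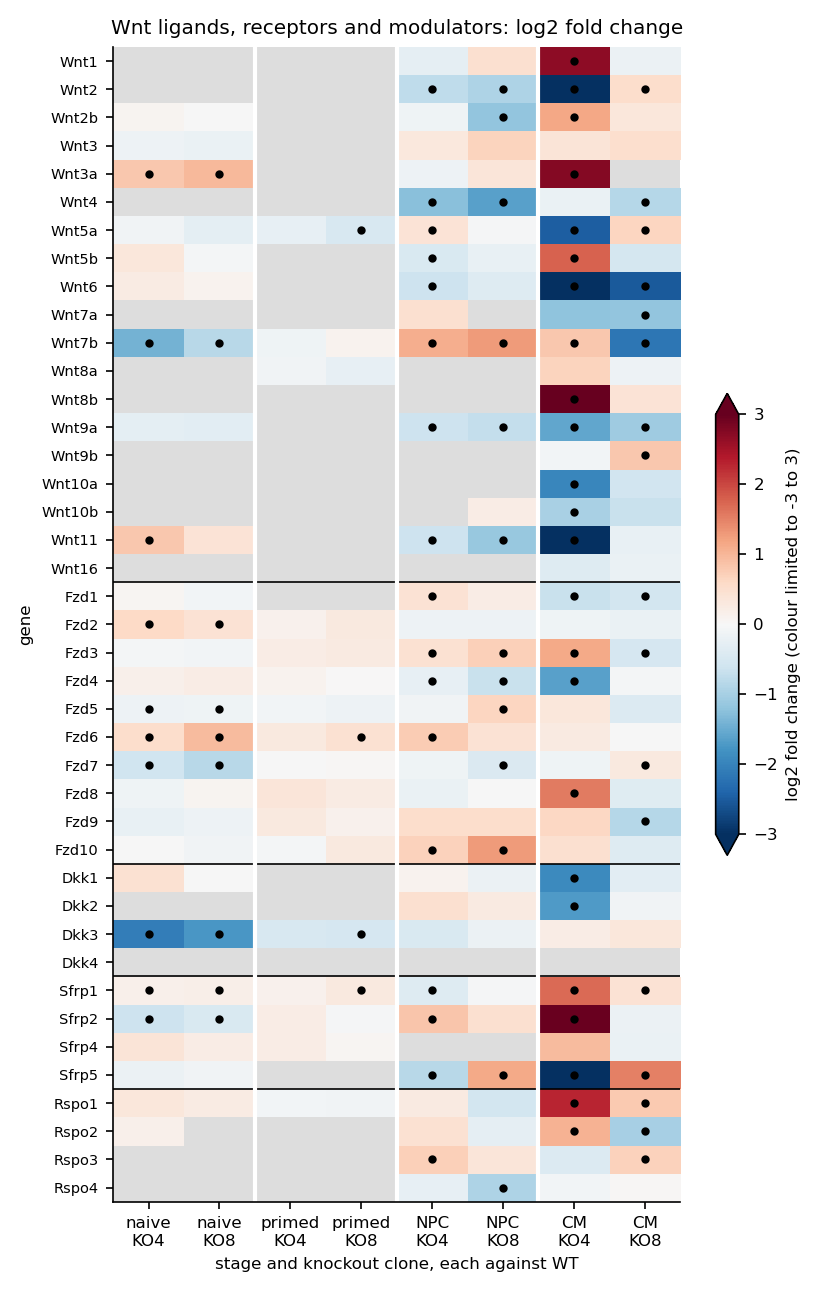
Log2 fold change of each of the 41 members (rows) in KO #4 and KO #8 against WT at each of the 4 stages (columns), coloured from -3 to 3 with larger changes at the end colours. The widest colours are in the KO #4 column of the CM stage, where Wnt8b reached 6.72 and Wnt2 -4.47, and the primed columns are the palest.

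In naive cells, Dkk3 and Wnt7b fell in both knockout clones, the receptor Fzd7 fell and Fzd2 and Fzd6 rose, while the ligand Wnt3a rose from a low level. 10 of 27 members tested were called in KO #4 (5 higher and 5 lower) and 9 of 26 in KO #8 (4 higher and 5 lower). Of all genes tested, 17.2% were called higher and 17.8% lower in KO #4, and 15.8% and 15.3% in KO #8, so the share of members called was near that of all genes. 4 members were higher in both clones and 5 lower, where 10.7% of all genes were higher and 10.8% lower in both and 0.299% were called in opposite directions. In bulk RNA, here and at the later stages, fewer cells of a type and less RNA per cell cannot be told apart.

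Markers of the cell state moved with these values. Of 6 markers of naive cells, 4 (Esrrb, Klf4, Tfcp2l1 and Prdm14) were lower in both clones and 1 was higher in KO #4 alone. Of 4 markers of primed cells tested, 3 (Otx2, Dnmt3a and Dnmt3b) were higher in both. The shares of all genes are those given above. In primed cells 4 of the 6 naive markers (Esrrb, Tfcp2l1, Nanog and Prdm14) were lower in both clones, where 2.9% of all genes were. Of 5 markers of primed cells tested there, 3 were lower in KO #4 and 1 in KO #8, and none was higher. Otx2 was the one lower in both clones, against its rise in naive cells. The part of the cell state in the members' values was not tested.

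Among the naive ligands, Wnt7b had 59, 45 and 39 reads in WT, 4, 6 and 4 in KO #4 and 13, 17 and 12 in KO #8, so that all knockout libraries lay below all WT libraries. Its log2 fold change was -1.42 ± 0.22 (SE; adjusted p = 2.45e-09) in KO #4 and -0.84 ± 0.20 (adjusted p = 0.00019) in KO #8. The deposited fold changes are drawn towards 0 at low counts, and the ratio of group means was larger, 9.84-fold and 3.29-fold lower. Wnt3a, a classical canonical ligand, moved the other way with 7, 11 and 11 reads in WT, 32, 28 and 38 in KO #4 and 40, 46 and 47 in KO #8 (ratio of means 3.44-fold and 4.66-fold higher; adjusted p = 0.00158 and 7.63e-06). Wnt11 had 21, 21 and 22 reads in WT, 48, 60 and 51 in KO #4 and 37, 42 and 32 in KO #8. It was called in KO #4 alone (0.82 ± 0.22, adjusted p = 0.000901, against 0.42 ± 0.20, adjusted p = 0.0955), although the libraries of both clones lay above those of WT.

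Among the naive receptors, Fzd7 had the smallest adjusted p and fell from a WT mean of 2294 normalised reads to 1503 in KO #4 (log2 fold change -0.60 ± 0.06, adjusted p = 1.82e-21) and 1265 in KO #8 (-0.83 ± 0.07, adjusted p = 1.33e-34). Reads per library were not recovered for Fzd5, Fzd7, Fzd10 and Sfrp1 at this stage, and group means are given. Fzd5, the most abundant receptor of naive cells, fell by 0.16 ± 0.05 (adjusted p = 0.00327) and by 0.12 ± 0.05 (adjusted p = 0.0255) on the log2 scale (1.12-fold and 1.09-fold lower by group means). Fzd6, which is known for planar polarity signalling, had 132, 114 and 130 reads in WT, 210, 157 and 196 in KO #4 and 237, 312 and 246 in KO #8. Fzd2 had 424, 286 and 347 reads in WT, 541, 593 and 468 in KO #4 and 480, 478 and 471 in KO #8. Fzd2 and Fzd6 thus rose without overlap between WT and knockout libraries, by 0.60 ± 0.12 and 0.53 ± 0.16 in KO #4 (adjusted p = 4.78e-06 and 0.0032) and by 0.44 ± 0.11 and 0.95 ± 0.14 in KO #8 (adjusted p = 0.000615 and 6.57e-10).

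Dkk3, a divergent Dickkopf family member, had 405, 355 and 405 reads in naive WT cells, 73, 80 and 67 in KO #4 and 103, 100 and 78 in KO #8. This was 5.16-fold and 4.05-fold lower by group means (adjusted p = 3.21e-44 and 3.2e-35), and all knockout libraries lay below all WT libraries. Sfrp2, which binds Wnts outside the cell, had 182, 172 and 144 reads in WT, 103, 113 and 68 in KO #4 and 141, 104 and 80 in KO #8, and fell by 0.63 ± 0.17 (adjusted p = 0.00122) and 0.45 ± 0.16 (adjusted p = 0.0201) on the log2 scale. Sfrp1 was called higher in both clones (0.14 ± 0.04, adjusted p = 0.00354, and 0.17 ± 0.04, adjusted p = 0.000256). It lies on chromosome 8 (chr8:24521974-24560104 in mm9, + strand), whose genes had a median log2 fold change of 0.42 in KO #4 and 0.43 in KO #8, and after subtracting that median the value of Sfrp1 was -0.28 and -0.26. The part of the chromosome in the value was not tested.

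**Figure D2:**
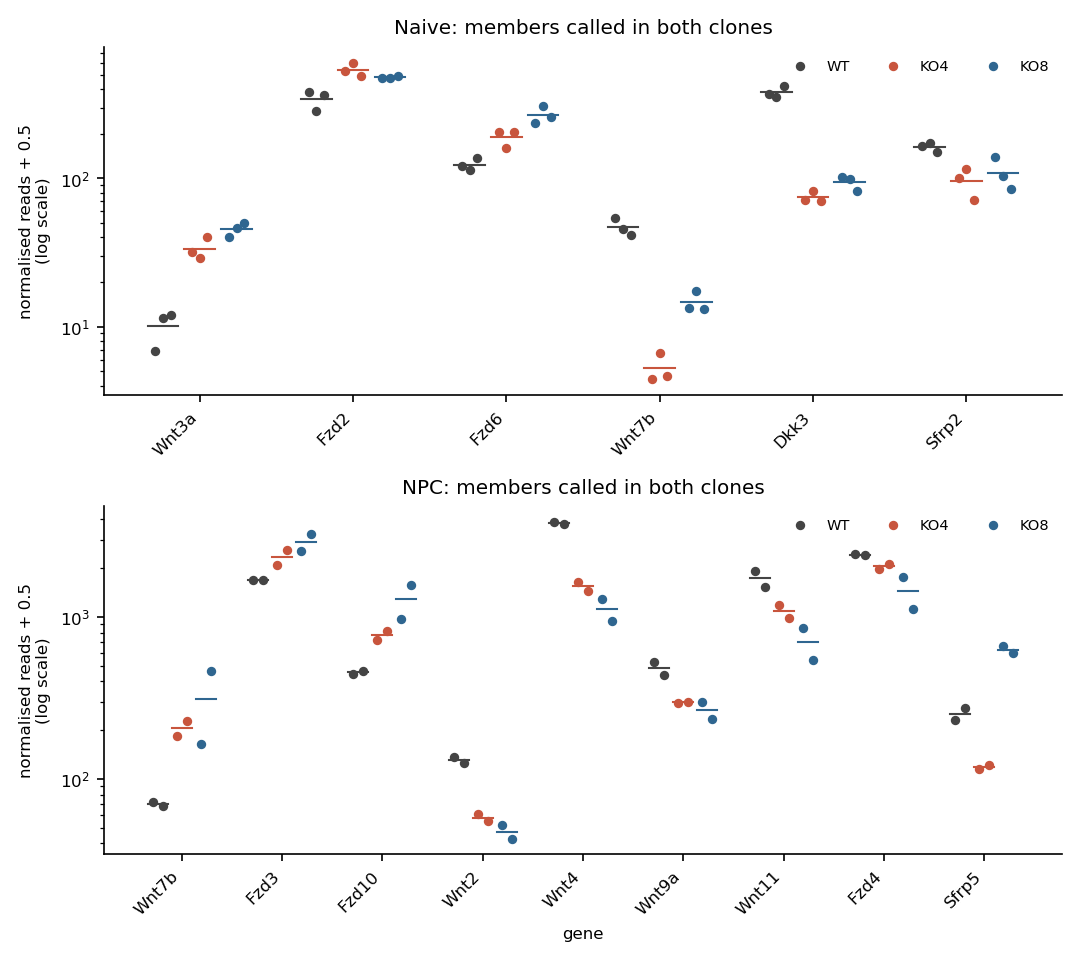
Normalised reads plus 0.5 (log scale) in each library (points) and their mean (bars) for the members called in both clones in naive cells (above; 3 libraries per group) and NPCs (below; 2 libraries per group), KO4 and KO8 standing for KO #4 and KO #8. Naive Fzd5, Fzd7 and Sfrp1 are left out since their reads were not recovered, and in the lower panel Sfrp5 lies below WT in KO #4 and above it in KO #8.

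In primed cells few members passed the test. None of 17 was called in KO #4, where 1 (Dkk3) had an unadjusted p under 0.05 and limma called 2, and 4 of 17 were called in KO #8 (Fzd6 and Sfrp1 higher, Wnt5a and Dkk3 lower), where limma called 7. Of all genes tested, the deposited test called 8.32% higher and 6.34% lower in KO #4, and 7.13% and 4.09% in KO #8. The share of all genes that limma called was not counted. No member was called in both clones, against 5.37% of all genes called higher in both, 2.9% lower in both and 0.0592% in opposite directions.

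Dkk3 had 85 and 70 reads in primed WT cells, 32 and 36 in KO #4 and 36 and 18 in KO #8, so both clones lay below WT. The test gave -0.48 ± 0.18 (adjusted p = 0.0518) in KO #4 and -0.51 ± 0.17 (adjusted p = 0.0222) in KO #8. Wnt5a, the main β-catenin-independent ligand, had 57 and 59 reads in WT, 31 and 40 in KO #4 and 16 and 20 in KO #8 (-0.25 ± 0.18, adjusted p = 0.405, and -0.48 ± 0.16, adjusted p = 0.0302). Fzd6 had 87 and 103 reads in WT, 114 and 139 in KO #4 and 170 and 127 in KO #8 (0.29 ± 0.18, adjusted p = 0.327, and 0.46 ± 0.17, adjusted p = 0.0499). In each of these genes WT and knockout libraries lay apart in both clones, yet KO #4 missed the threshold. With 2 libraries per group this is weak support, and Wnt7b and Wnt8a, not called in KO #4, lay apart from WT there as well. Sfrp1 rose by 0.29 ± 0.07 in KO #8 (adjusted p = 0.00134; 1629 and 1558 reads in WT, 1852 and 1729 in KO #8), and after subtracting the chromosome 8 median of that table the value was -0.10.

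The knockout effect differed between naive and primed cells for 3 members in both clones, of 16 tested at both stages. This is a test of the difference of the 2 deposited log2 fold changes against their joint standard error, adjusted over 11765 genes, of which 3.77% passed in both clones with the same sign. For Dkk3 the naive minus the primed effect was -1.59 ± 0.23 (adjusted p = 9.43e-10) in KO #4 and -1.22 ± 0.21 (adjusted p = 1.49e-06) in KO #8. The deposited fold changes are drawn towards 0, more so at low counts, and the test does not correct for that. By the ratio of group means Dkk3 in KO #8 was at -2.02 in naive and -1.41 in primed cells on the log2 scale. These lie nearer to each other than the deposited -1.74 and -0.51. Fzd7 had a log2 fold change near 0 in primed cells (3497 and 3529 reads in WT, 3387 and 3268 in KO #4, 3377 and 3133 in KO #8), and the difference was -0.59 ± 0.08 (adjusted p = 4.59e-10) and -0.86 ± 0.09 (adjusted p = 1.74e-19). For Wnt7b, with 41 and 46 primed reads in WT, 32 and 31 in KO #4 and 54 and 42 in KO #8, the difference was -1.28 ± 0.28 (adjusted p = 0.000197) and -0.94 ± 0.26 (adjusted p = 0.00779). In all 3 the naive effect was the lower one.

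In NPCs, several ligands that WT cells expressed strongly fell in both clones, Wnt4 above all, while Wnt7b and the receptors Fzd3 and Fzd10 rose. 17 of 33 members tested were called in KO #4 (8 higher and 9 lower) and 13 of 33 in KO #8 (5 higher and 8 lower). Of all genes tested, 7.85% were called higher and 5.12% lower in KO #4 and 6.53% and 3.34% in KO #8, so the members were called at a higher share than all genes in both directions. 3 members were higher in both clones, 5 lower in both and 1 (Sfrp5) in opposite directions, where these shares were 4.77%, 2.21% and 0.0714% of all genes. The median absolute log2 fold change was 0.45 over the members and 0.11 over all genes in KO #4, and 0.48 and 0.14 in KO #8.

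Wnt4, a ligand known from kidney and gonad development, had 4059 and 3562 reads in WT NPCs, 1698 and 1389 in KO #4 and 1421 and 982 in KO #8. Its log2 fold change was -1.24 ± 0.08 (adjusted p = 3.95e-47) and -1.62 ± 0.14 (adjusted p = 2.19e-26). Wnt11 had 2034 and 1468 reads in WT, 1224 and 948 in KO #4 and 945 and 563 in KO #8, and fell by 0.62 ± 0.12 (adjusted p = 2.68e-06) and by 1.13 ± 0.18 (adjusted p = 5.82e-08) on the log2 scale. In both genes every knockout library lay below every WT library, although the WT libraries of Wnt11 differed by more than their sizes did.

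The ligand Wnt9a had 559 and 421 reads in WT NPCs, 305 and 286 in KO #4 and 331 and 245 in KO #8 (-0.61 ± 0.15, adjusted p = 0.000739, and -0.72 ± 0.19, adjusted p = 0.00318). Wnt2 had 143 and 119 reads in WT, 62 and 52 in KO #4 and 57 and 44 in KO #8 (-0.75 ± 0.21, adjusted p = 0.00445, and -0.93 ± 0.25, adjusted p = 0.00408). Wnt7b, a ligand of the developing forebrain and lung, had 76 and 65 reads in WT, 190 and 218 in KO #4 and 181 and 481 in KO #8 (1.09 ± 0.20, adjusted p = 1.45e-06, and 1.29 ± 0.26, adjusted p = 2.87e-05). Wnt7b was thus higher in NPCs of both clones and lower in their naive cells.

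Among the receptors of NPCs, Fzd10 had 467 and 446 reads in WT, 746 and 786 in KO #4 and 1084 and 1648 in KO #8 (0.69 ± 0.13, adjusted p = 2.04e-06, and 1.27 ± 0.19, adjusted p = 2.67e-09). Fzd3, a receptor needed for axon guidance, had 1785 and 1608 reads in WT, 2172 and 2465 in KO #4 and 2832 and 3358 in KO #8 (0.45 ± 0.10, adjusted p = 0.000106, and 0.72 ± 0.13, adjusted p = 5.1e-06). Fzd4, a receptor of retinal blood vessels, had 2561 and 2323 reads in WT, 2056 and 2023 in KO #4 and 1964 and 1163 in KO #8 (-0.24 ± 0.08, adjusted p = 0.0322, and -0.66 ± 0.17, adjusted p = 0.00184). Sfrp5 had 245 and 262 reads in WT, 118 and 117 in KO #4 and 729 and 624 in KO #8, so it was lower in one clone (-0.84 ± 0.19, adjusted p = 0.000112) and higher in the other (1.14 ± 0.18, adjusted p = 1.64e-08).

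8 members were called in NPCs of KO #4 alone, of which Wnt5a, Fzd1, Fzd6, Sfrp2 and Rspo3 were higher and Wnt5b, Wnt6 and Sfrp1 lower. Sfrp2 had 580 and 499 reads in WT, 975 and 1004 in KO #4 and 692 and 991 in KO #8 (0.82 ± 0.12, adjusted p = 2.2e-10, against 0.48 ± 0.19, adjusted p = 0.0923), and Fzd6 had 352 and 302, 578 and 595, and 572 and 430 (adjusted p = 1.61e-06 and 0.127). Rspo3, the R-spondin of blood vessel development, had 507 and 459 reads in WT, 816 and 828 in KO #4 and 903 and 506 in KO #8 (adjusted p = 2.12e-07 and 0.35). The other log2 fold changes in KO #4 were 0.41 ± 0.12 for Wnt5a, 0.42 ± 0.09 for Fzd1, -0.45 ± 0.16 for Wnt5b, -0.62 ± 0.22 for Wnt6 and -0.38 ± 0.06 for Sfrp1, the last against a chromosome 8 median of 0.46. These 8 were not shown to differ between the clones, since the test of the difference itself passed for none of the 7 in it, and Sfrp1 was not in it.

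4 members were called in NPCs of KO #8 alone. Wnt2b had 689 and 523 reads in WT, 547 and 535 in KO #4 and 273 and 224 in KO #8 (-1.18 ± 0.18, adjusted p = 1.46e-08), and Fzd5 had 529 and 459, 446 and 454, and 954 and 789 (0.65 ± 0.16, adjusted p = 0.000779). Fzd7 fell by 0.43 ± 0.11 (adjusted p = 0.00284). Rspo4 had 47 and 52 reads in WT, 0 and 5 in KO #4 and 6 and 0 in KO #8, so that it was nearly undetected in both clones although only KO #8 was called (-0.93 ± 0.24, adjusted p = 0.00228, against -0.24 ± 0.12, adjusted p = 0.26). The 2 clones differed directly, by limma adjusted over 14208 genes, in 3 of 33 members (1.15% of all genes passed). KO #8 was lower than KO #4 in Wnt2b (-1.24 ± 0.13, adjusted p = 0.00569) and higher in Fzd5 (0.84 ± 0.11, adjusted p = 0.0135) and Sfrp5 (2.41 ± 0.15, adjusted p = 0.000274).

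Counts of called members in NPCs depended on the test and on single libraries. For KO #4 limma called 8 of the members, not among them Wnt7b, Wnt11, Fzd3 and Fzd4, which are called in both clones in the deposited tables, nor Wnt5a, Wnt5b, Wnt6 and Rspo3. The count was between 1 and 2 when any of the 4 libraries was left out. For KO #8 limma called 13, but 3 without the first WT library, 6 without the second and 21 without the first KO #8 library, while the clone difference passed in 20 members without that library, in 5 without the second KO #8 library and in 1 without either KO #4 library. A group left with 1 library was assumed to vary like the others. The share of all genes called by limma against WT, or with a library left out, was not counted.

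Beside these values, neural markers were higher in NPCs of both clones. Of 6 neural progenitor markers, 5 were called higher in KO #4 and 4 in KO #8, and their summed normalised reads were 4015 to 4200 in WT, 6303 to 6367 in KO #4 and 6174 to 7298 in KO #8. 4 neuron markers summed to 2357 to 2462 in WT, 4910 to 6022 in KO #4 and 5216 to 10820 in KO #8. The sum of 4 smooth muscle markers went the other way, with 1221 to 1570 in WT, 375 to 422 in KO #4 and 830 to 1130 in KO #8. Of these, 2 of 4 tested were called lower in KO #4 and 1 of 3 in KO #8, with Acta2 lower in both. Their median log2 fold change was -0.92 in KO #4 and -0.21 in KO #8, so the sum does not stand for each of them. The part of the cell composition in the members' values was not tested.

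**Figure D3:**
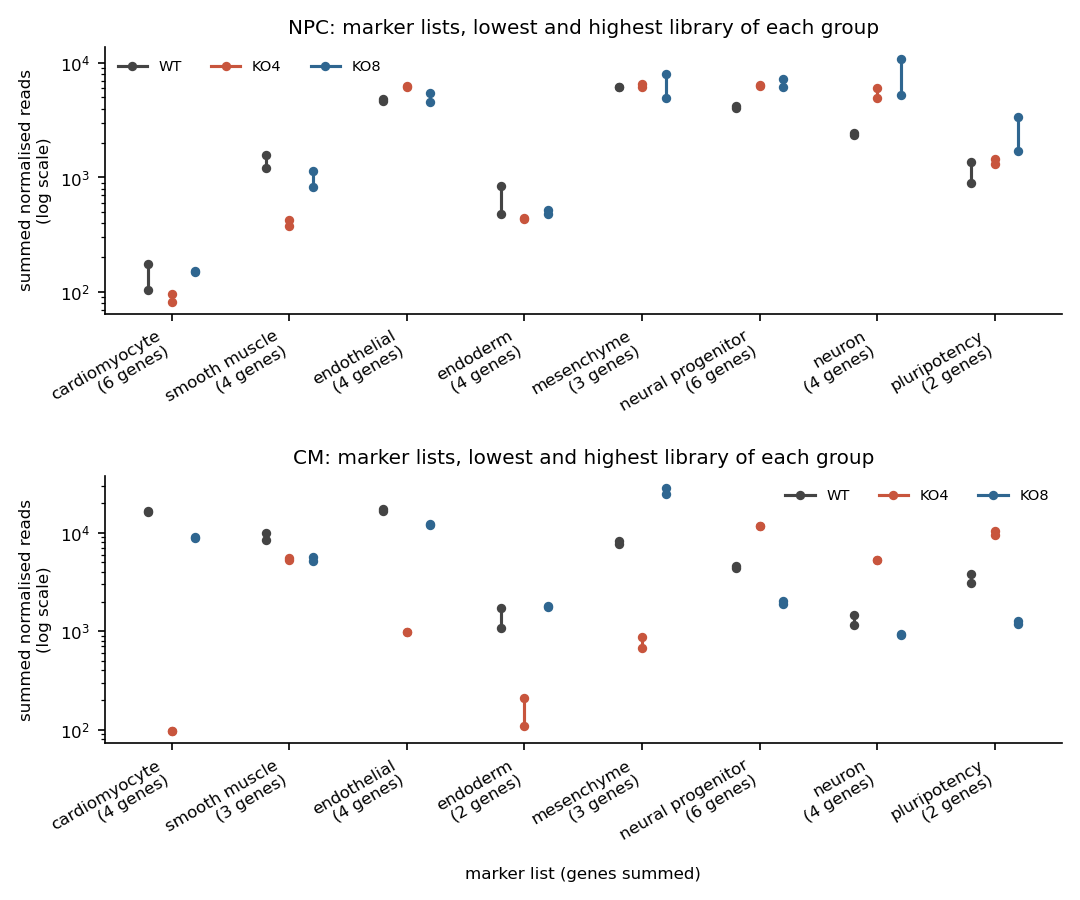
Normalised reads summed over the markers of each list (log scale), with the lowest and highest library of each group joined by a line, in NPCs (above) and CMs (below), KO4 and KO8 standing for KO #4 and KO #8. The number of genes with recovered reads stands under each list, and the sums of cardiomyocyte, endothelial and mesenchyme markers of KO #4 lie far below WT at the CM stage.

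In CMs the 2 clones parted. KO #4 lost most of the Wnt2, Wnt11, Wnt5a and Sfrp5 signal of WT cells and gained Wnt8b, Wnt1, Wnt5b and Sfrp2, whereas KO #8 gained Wnt2, Wnt5a and Sfrp5 and lost Wnt7b. Wnt6 fell and Sfrp1 rose in both clones. 24 of 40 members tested were called in KO #4 (12 higher and 12 lower) and 17 of 39 in KO #8 (8 higher and 9 lower), where 21.8% of all genes were higher and 23.9% lower in KO #4 and 10.7% and 9.7% in KO #8. In both clones 2 members were higher (5.08% of all genes) and 3 lower (6.58%), and 6 were called in opposite directions (3.73%). The median absolute log2 fold change of the members was 1.14 in KO #4 (0.44 over all genes) and 0.44 in KO #8 (0.19).

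These values stand beside a wide change of cell type markers. The summed normalised reads of 4 cardiomyocyte markers were 16396 to 16654 in WT, 96.5 to 96.7 in KO #4 and 8909 to 9091 in KO #8. 4 endothelial markers summed to 16712 to 17455 in WT, 985 to 993 in KO #4 and 12114 to 12371 in KO #8, and 3 mesenchyme markers to 7739 to 8302, 669 to 869 and 24856 to 28315. The mesenchyme list has 4 markers, of which 3 were called lower and 1 (Col1a1) higher in KO #4. In KO #8 all 4 were called higher, and the shares of all genes are those given above. 6 neural progenitor markers were at 4369 to 4650 in WT, 11683 to 11738 in KO #4 and 1899 to 2022 in KO #8, and Pou5f1 and Sox2 together at 3101 to 3796, 9465 to 10417 and 1190 to 1259. Of the neural progenitor markers, 4 were called higher in KO #4, while in KO #8 1 (Sox1) was called higher and 1 lower. The median log2 fold change of the 4 tested in KO #8 was 0.0636, so their sum in KO #8 does not stand for each of them. The part of these markers in the members' values was not tested.

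The members that changed alike in both clones were few. Wnt6 had 278 and 258 reads in WT CMs, 14 and 17 in KO #4 and 13 and 34 in KO #8, and was 15.9-fold and 10.9-fold lower by group means (adjusted p = 1.09e-24 and 9.63e-19). Wnt9a had 280 and 187 reads in WT, 76 and 61 in KO #4 and 82 and 98 in KO #8 (-1.55 ± 0.30, adjusted p = 1.95e-06, and -1.07 ± 0.24, adjusted p = 0.000127), the same direction as in NPCs. The receptor Fzd1 had 1579 and 1794 reads in WT, 977 and 965 in KO #4 and 1133 and 1074 in KO #8 (-0.68 ± 0.13, adjusted p = 1.03e-06, and -0.56 ± 0.12, adjusted p = 6.69e-05).

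The 2 members that rose in CMs of both clones were secreted modulators. Rspo1 had 34 and 29 reads in WT, 155 and 167 in KO #4 and 87 and 61 in KO #8 (2.28 ± 0.35, adjusted p = 6.46e-10, and 0.79 ± 0.30, adjusted p = 0.0412). Sfrp1 had 2494 and 1871 reads in WT, 6721 and 6373 in KO #4 and 2993 and 2835 in KO #8 (1.69 ± 0.11, adjusted p = 1.65e-51, and 0.44 ± 0.11, adjusted p = 0.00114). The chromosome 8 median was 0.49 in KO #4 and 0.45 in KO #8, and after subtracting it the value of Sfrp1 was 1.21 in KO #4 and -0.0125 in KO #8.

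6 members were called in opposite directions, 3 of them higher in KO #8. Wnt2, a ligand known from early cardiac mesoderm, had 388 and 337 reads in WT, 11 and 12 in KO #4 and 585 and 465 in KO #8 (-4.47 ± 0.35, adjusted p = 1.34e-36, and 0.52 ± 0.17, adjusted p = 0.0109). Wnt5a had 1155 and 1109 reads in WT, 191 and 176 in KO #4 and 1847 and 1643 in KO #8 (-2.47 ± 0.16, adjusted p = 1.35e-50, and 0.63 ± 0.11, adjusted p = 1.54e-07). Sfrp5 had 366 and 193 reads in WT, 11 and 29 in KO #4 and 898 and 843 in KO #8 (-3.31 ± 0.38, adjusted p = 9.14e-17, and 1.50 ± 0.19, adjusted p = 3.79e-13), the same split as in NPCs.

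The other 3 were higher in KO #4. Wnt7b had 238 and 221 reads in WT, 392 and 362 in KO #4 and 39 and 24 in KO #8 (0.81 ± 0.21, adjusted p = 0.000294, and -2.18 ± 0.26, adjusted p = 2.93e-15). Fzd3 had 1703 and 1517 reads in WT, 3464 and 3065 in KO #4 and 1068 and 1106 in KO #8 (1.13 ± 0.10, adjusted p = 8.32e-26, and -0.51 ± 0.12, adjusted p = 0.000158). Rspo2 had 27 and 69 reads in WT, 74 and 131 in KO #4 and 10 and 8 in KO #8 (1.04 ± 0.44, adjusted p = 0.0397, and -0.99 ± 0.31, adjusted p = 0.00876), with WT libraries that lay far apart.

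**Figure D4:**
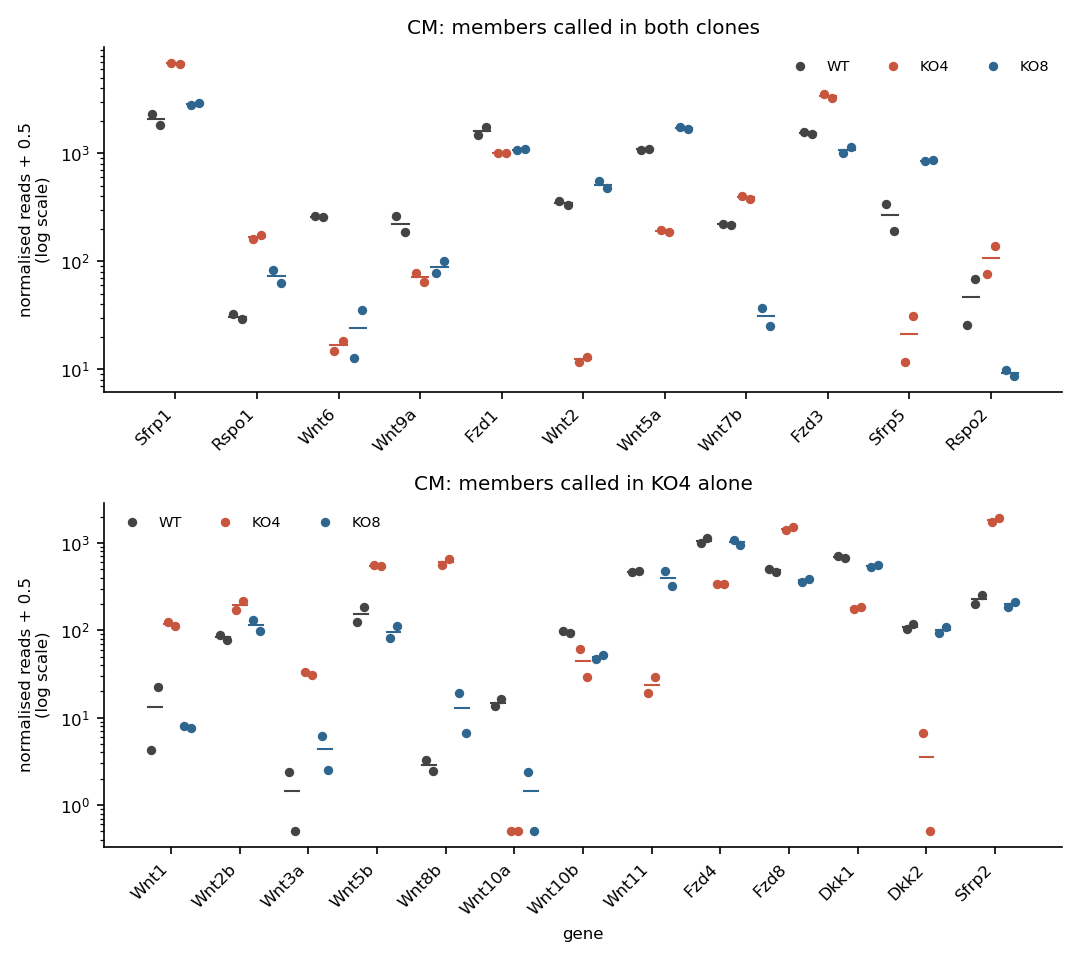
Normalised reads plus 0.5 (log scale) in each CM library (points, 2 per group) and their mean (bars) for the members called in both clones (above) and in KO #4 alone (below), KO4 and KO8 standing for KO #4 and KO #8. Wnt8b rises from 3 and 2 reads in WT to 545 and 627 in KO #4, and Wnt2, Wnt5a and Sfrp5 fall in KO #4 and rise in KO #8.

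13 members were called in CMs of KO #4 alone. The widest change was that of Wnt8b, a ligand of the developing forebrain, which had 3 and 2 reads in WT, 545 and 627 in KO #4 and 20 and 6 in KO #8 (6.72 ± 0.42, adjusted p = 1.97e-55, and 0.42 ± 0.25, adjusted p = 0.262). Wnt1, known from the midbrain, had 4 and 22 reads in WT, 122 and 105 in KO #4 and 8 and 7 in KO #8 (2.69 ± 0.48, adjusted p = 1.06e-07, in KO #4), and Wnt3a had 2 and 0, 32 and 29, and 6 and 2 (2.75 ± 0.63, adjusted p = 5.79e-05). All 3 were near the limit of detection in WT cells. Wnt5b rose with 133 and 188 reads in WT, 536 and 522 in KO #4 and 86 and 108 in KO #8 (adjusted p = 9.2e-15 in KO #4), and Wnt2b with 94 and 79, 166 and 205, and 138 and 94 (adjusted p = 0.000399). The receptor Fzd8 had 544 and 474 reads in WT, 1348 and 1438 in KO #4 and 383 and 372 in KO #8 (adjusted p = 1.52e-28 in KO #4), and Sfrp2 had 212 and 258, 1679 and 1818, and 198 and 203 (2.97 ± 0.15, adjusted p = 3.49e-82).

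Among the 6 of these 13 that fell, Wnt11, which is known to promote cardiac differentiation, had 498 and 481 reads in WT, 18 and 27 in KO #4 and 500 and 310 in KO #8 (-4.10 ± 0.29, adjusted p = 6.24e-44, in KO #4). Dkk1 had 764 and 679 reads in WT, 169 and 176 in KO #4 and 559 and 549 in KO #8 (-1.91 ± 0.18, adjusted p = 1.28e-23, and -0.33 ± 0.14, adjusted p = 0.0933). Dkk2 had 111 and 118, 6 and 0, and 99 and 106 (adjusted p = 0.0198 in KO #4). Dkk1 and Dkk2 were thus well below WT in KO #4 and close to WT in KO #8. The receptor Fzd4 had 1065 and 1144 reads in WT, 330 and 320 in KO #4 and 1136 and 930 in KO #8 (adjusted p = 1.67e-24 in KO #4). Wnt10b had 106 and 93 reads in WT, 59 and 27 in KO #4 and 50 and 51 in KO #8 (adjusted p = 0.0417 and 0.0739). Wnt10a had 14 and 16 reads in WT, 0 and 0 in KO #4 and 2 and 0 in KO #8 (adjusted p = 0.00752 and 0.0888), and in KO #4 was at least 9.22-fold lower against a floor of 3 reads over the group. Wnt10a and Wnt10b were thus low in both clones although KO #4 alone was called. Wnt10a was not tested by limma, since its mean lay under 10 normalised reads, and limma did not call Rspo2 in KO #4.

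In CMs of KO #8 alone 6 members were called. Wnt4 had 684 and 515 reads in WT, 437 and 522 in KO #4 and 311 and 296 in KO #8 (-0.87 ± 0.17, adjusted p = 6.31e-06), Wnt7a had 35 and 38, 14 and 8, and 0 and 3 (-1.20 ± 0.30, adjusted p = 0.000563), and Fzd9 had 35 and 57, 64 and 76, and 16 and 9 (-0.85 ± 0.31, adjusted p = 0.0318). These 3 fell. Rspo3 had 467 and 398 reads in WT, 259 and 331 in KO #4 and 697 and 704 in KO #8 (0.69 ± 0.15, adjusted p = 7.62e-05). Fzd7 rose by 0.30 ± 0.10 (adjusted p = 0.0121), and Wnt9b had 9 and 9, 8 and 7, and 29 and 42 reads (0.82 ± 0.31, adjusted p = 0.039). For KO #8 limma called 22 members with all libraries, and fewer when either KO #8 library was left out. The share of all genes that it called was not counted.

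The direct comparison of the clones in CMs passed in 30 of 37 members (10 higher and 20 lower in KO #8), where 56.6% of 14111 genes passed. The differences were widest for Dkk2 (5.79 ± 0.95, adjusted p = 0.000808), Wnt8b (-5.75 ± 0.51, adjusted p = 1.88e-05), Sfrp5 (5.48 ± 0.42, adjusted p = 6.84e-06) and Wnt2 (5.36 ± 0.18, adjusted p = 5.87e-08), all as KO #8 minus KO #4 on the log2 scale. In naive cells 3 of 17 members differed (12.3% of 4473 genes), with Wnt7b 1.50 ± 0.40 (adjusted p = 0.0104) and Fzd6 0.50 ± 0.14 (adjusted p = 0.0116) higher in KO #8 and Wnt5b lower (-0.48 ± 0.16, adjusted p = 0.0408). In primed cells 1 of 22 differed (4.86% of 13008 genes), Fzd10 with 128 and 156 reads in KO #4 and 204 and 184 in KO #8 (0.52 ± 0.16, adjusted p = 0.046). The primed difference was lost when any library but the second of KO #4 was left out, and in naive cells the count of differing members was 1 without the second KO #4 library and 0 without the second KO #8 library.

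**Figure D5:**
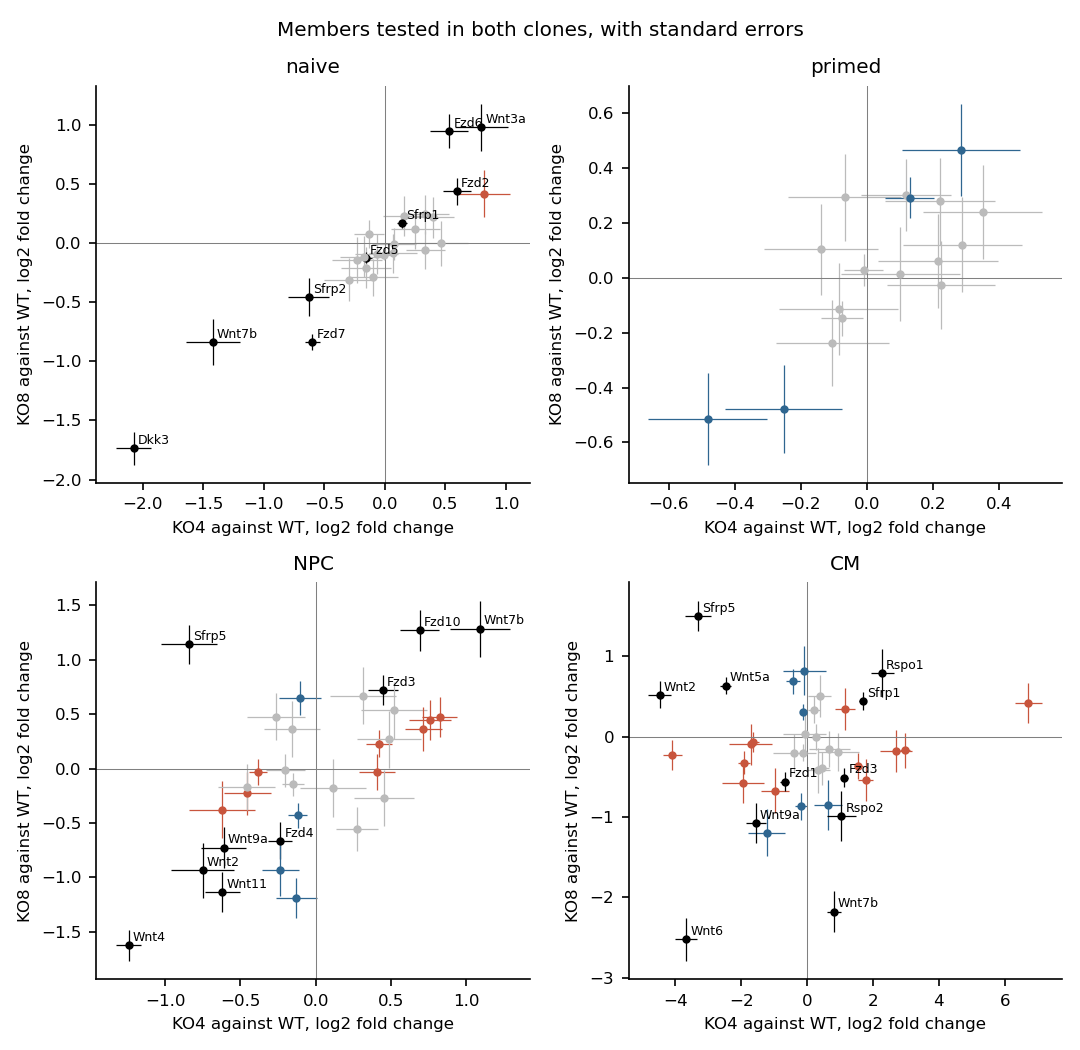
Log2 fold change against WT in KO #4 (horizontal) and KO #8 (vertical) with standard errors for the members tested in both clones, at each stage. Black points with names were called in both clones, coloured points in 1 clone and grey points in none. Both axes share the WT libraries, and at the CM stage Wnt2, Wnt5a and Sfrp5 lie to the upper left and Wnt7b, Fzd3 and Rspo2 to the lower right.

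The knockout effect differed between CMs and NPCs in both clones for 6 of 31 members, where 5.18% of 13567 genes passed with the same sign in both. Here too the fold changes compared are drawn towards 0, which the test does not correct for. Wnt6 fell further in CMs, with a difference of CM minus NPC effect of -3.05 ± 0.41 (adjusted p = 2.6e-12) in KO #4 and -2.15 ± 0.38 (adjusted p = 6.61e-07) in KO #8. Fzd1, lower in CMs of both clones and higher in NPCs of KO #4, had a difference of -1.10 ± 0.16 (adjusted p = 3.02e-11) and -0.79 ± 0.18 (adjusted p = 0.000178). The other 4 had the higher effect in CMs. For Rspo1 the difference was 2.00 ± 0.38 (adjusted p = 9.92e-07) and 1.35 ± 0.36 (adjusted p = 0.00279), for Wnt2b 1.28 ± 0.33 and 1.53 ± 0.32, for Wnt4 1.05 ± 0.20 and 0.76 ± 0.22, and for Sfrp1 2.08 ± 0.12 and 0.47 ± 0.17.

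Some members are close neighbours in the genome (coordinates in mm9). Wnt6 and Wnt10a lie 6.196 kb apart on chromosome 1, Wnt10b and Wnt1 11.706 kb apart on chromosome 15, Wnt3a and Wnt9a 16.175 kb apart on chromosome 11 and Wnt9b and Wnt3 24.328 kb apart on the same chromosome. In CMs of KO #4 Wnt6 and Wnt10a both fell. In the same cells Wnt3a rose and Wnt9a fell, and Wnt1 rose and Wnt10b fell, so neighbours did not always move alike. Wnt3 was called in no table, and Wnt9b rose in CMs of KO #8 alone.

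Other genes of the pathway were taken from lists chosen with results of these data known. Among the nuclear factors, Lef1 and Tcf7 were lower in both clones in naive and in primed cells, and Tcf7 also in NPCs. Lef1 had 138, 115 and 106 reads in naive WT cells (-0.56 ± 0.18, adjusted p = 0.00767, in KO #4 and -1.15 ± 0.18, adjusted p = 6.57e-09, in KO #8), and 813 and 774 in primed WT cells, 297 and 358 in KO #4 and 548 and 382 in KO #8 (-1.05 ± 0.12, adjusted p = 1.14e-15, and -0.56 ± 0.12, adjusted p = 5.95e-05). Of 9 nuclear factors tested in naive cells, 1 was higher and 2 lower in KO #4, and 1 higher and 4 lower in KO #8 (median log2 fold change -0.13 and -0.12, against -0.000868 and -0.00471 over all genes). Of all genes tested, 35.0% were called in KO #4 and 31.1% in KO #8, so the count in KO #4 was near the background. Bcl9l, a coactivator of β-catenin, was the factor that rose in both (0.23 ± 0.07, adjusted p = 0.0022, and 0.27 ± 0.06, adjusted p = 0.000127).

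Among 11 feedback and target genes, Sp5, a direct target of β-catenin, was the naive gene called in both clones, with 364, 288 and 308 reads in WT (-1.08 ± 0.14, adjusted p = 3.76e-14, and -1.70 ± 0.15, adjusted p = 1.01e-29). Of 11 tested in naive KO #4, 2 were called higher and 1 lower, and of 10 in KO #8, 0 higher and 2 lower. Their median log2 fold change was 0.064 and -0.0019, and 35.0% and 31.1% of all genes were called. In the same cells Axin2, the standard target gene, was lower in KO #8 alone (-0.25, adjusted p = 0.000299, against 0.08, adjusted p = 0.341, in KO #4). In NPCs Sp8 and Ccnd1 rose in both clones (0.56 ± 0.14, adjusted p = 0.000464, and 0.58 ± 0.20, adjusted p = 0.0376, for Ccnd1). In CMs Nkd1 and Sp8 rose and Sp5 fell in both clones, and Axin2 rose in KO #4 alone (513 and 462 reads in WT, 825 and 969 in KO #4 and 378 and 358 in KO #8, adjusted p = 3.22e-09 in KO #4). Of 9 tested in CMs, 5 were called higher and 3 lower in KO #4, and 3 higher and 2 lower in KO #8. There 45.7% and 20.4% of all genes were called. Sp8, a factor that neural cells also use, had 54 and 61 reads in WT CMs, 2673 and 2642 in KO #4 and 116 and 135 in KO #8.

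Secretion genes, co-receptors and other extracellular inhibitors follow. Porcn, which lipidates Wnts, fell in primed cells of both clones (409 and 348 reads in WT, 213 and 209 in KO #4, 244 and 185 in KO #8), and Wls, their carrier to the surface, rose in naive cells of both (0.29 ± 0.11, adjusted p = 0.0291, and 0.76 ± 0.10, adjusted p = 8.2e-12). Of 6 co-receptors, none was called in both clones outside naive cells, where Ptk7 rose. In CMs of KO #4, where 45.7% of all genes were called, 4 of the 6 co-receptors were lower, and 2 of 10 inhibitors were higher and 4 lower. Of 10 other extracellular inhibitors, Wif1 fell in NPCs of both clones, and in CMs Frzb rose (790 and 884 reads in WT, 2229 and 2463 in KO #4, 2069 and 1947 in KO #8) and Kremen1 fell in both. Of 5 R-spondin receptors and turnover genes, Lgr4 rose in naive cells and Lgr6 fell in NPCs of both clones.

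Of 10 genes of the cytoplasmic core, Csnk1a1 fell in naive cells of both clones, Ctnnb1 in naive and primed cells, and Apc in CMs, while Apc2 rose in NPCs. Of 7 planar polarity genes, 3 fell in naive cells of both clones (Celsr1, Vangl1 and Vangl2), where 10.8% of all genes did, and Prickle1 rose in both (0.44 ± 0.18, adjusted p = 0.0457, and 0.76 ± 0.16, adjusted p = 1.54e-05). Celsr1 and Vangl1 also fell in primed cells of both. Celsr1 had 505 and 473 reads in primed WT cells, 353 and 340 in KO #4 and 351 and 316 in KO #8. In NPCs Celsr2, Celsr3 and Vangl2 rose in both, Celsr3 with 170 and 156 reads in WT, 366 and 352 in KO #4 and 435 and 784 in KO #8 (0.95 ± 0.17, adjusted p = 3.67e-07, and 1.37 ± 0.23, adjusted p = 1.45e-07).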

How the data were processed

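RNA of 27 libraries was analysed from 8 deposited tables, each of 1 clone and the WT cells of a stage, with groups taken from the sample labels. Per the submitters' processing notes and the paper's methods, the authors trimmed reads with Trim Galore 0.6.7, mapped reads on mm9 by HISAT2 2.2, used featureCounts for counts per gene and DESeq2 1.46.0 for the test of a clone. How strand and multiply mapped reads were handled is not given in the sources used here. The authors deposited per gene a base mean, a signal that is the mean of their normalised counts over the libraries in a test, and the log2 fold change with its standard error, the Wald score, a p-value and an adjusted p-value. These columns are the main values here, since the tables hold no counts per library.

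Whole reads per library were recovered by a search for the whole numbers that give the base means of both tables of a stage. For 2081 to 4661 genes per stage the base means did not settle the reads, and the fold changes helped to choose them, so they are no check there. Of the genes settled by the base means alone, those with a higher base mean were checked against both fold changes. Of these, 2254 of 2255 matched in naive cells and 99.98% to 99.99% at the other stages. Reads were recovered for 51.3% of the genes above 0 in naive cells, mostly the lower ones, and for 98.8% to 98.9% at the other stages. A count of 2 reads was 1.81 to 2.25 times as common as 1, and whether read mates were counted separately is not given in the sources used here. The deposited fold changes are drawn towards 0 by a prior. Reads of a gene and of an antisense partner cannot be told apart. All libraries of a group come from 1 clone or line, so p-values measure the spread between these libraries, which may be technical.

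KO #8 was compared with KO #4 by limma 3.58.1 in R 4.3.3 (moderated test with a mean-variance trend) on log2(normalised reads + 0.5), with WT in the fit, over recovered genes with a mean of at least 10 normalised reads. Knockout effects at 2 stages were compared by the difference of the deposited log2 fold changes over the root of the summed squared standard errors. The pull of these fold changes towards 0, which can differ between stages, was not corrected for. Adjusted p-values are Benjamini-Hochberg over all genes of a table or fit, two-sided, with a threshold of 0.05. The recovery and both tests were tested on simulated data. Every member called in both clones is named with its values, every member called in 1 clone is named, and of each family the gene with the highest WT level is named. The members, the gene lists and these rules were chosen with earlier results of these data known. Gene positions are those of NCBIM37 (mm9), and upstream sequences are from RefSeq on GRCm38.p6. Calculations used Python 3.11.15, numpy 2.4.6, pandas 2.3.3, scipy 1.17.1, numba 0.67.0 and matplotlib 3.10.9. Alternatives were another threshold, a minimum fold change or base mean, limma in place of the deposited test with a pseudocount of 0.5 or 2, and leaving out each library.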

Additional observations from a re-analysis of the deposited data

Results flagged for a closer look

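By the deposited fold changes, which are drawn towards 0, the knockout effect differed between stages in both clones for 9 members. CM minus NPC effects on the log2 scale were 1.28 in KO #4 and 1.53 in KO #8 for Wnt2b, 1.05 and 0.76 for Wnt4, and -3.05 and -2.15 for Wnt6. For Fzd1 they were -1.10 and -0.79, for Sfrp1 2.08 and 0.47, and for Rspo1 2.00 and 1.35. Naive minus primed effects were -1.28 and -0.94 for Wnt7b, -0.59 and -0.86 for Fzd7, and -1.59 and -1.22 for Dkk3.

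The 2 clones differed from each other by limma in 37 comparisons of a member at a stage, given as KO #8 minus KO #4 on the log2 scale. In naive cells the difference was -0.48 for Wnt5b, 1.50 for Wnt7b and 0.50 for Fzd6, and in primed cells it was 0.52 for Fzd10. In NPCs it was -1.24 for Wnt2b, 0.84 for Fzd5 and 2.41 for Sfrp5.

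In CMs the ligands lower in KO #8 were Wnt1 (-3.91), Wnt2b (-0.78), Wnt3a (-3.02), Wnt4 (-0.74), Wnt5b (-2.53), Wnt7a (-3.11), Wnt7b (-3.68), Wnt8a (-3.11) and Wnt8b (-5.75), and those higher were Wnt2 (5.36), Wnt5a (3.16), Wnt9b (2.07) and Wnt11 (4.05). Among CM receptors the difference was -1.67 for Fzd3, -0.96 for Fzd5, -0.28 for Fzd6, -1.96 for Fzd8, -2.57 for Fzd9 and -0.92 for Fzd10, with 1.58 for Fzd4 and 0.44 for Fzd7. Among the modulators in CMs it was 1.60 for Dkk1, 5.79 for Dkk2, -1.25 for Sfrp1, -3.20 for Sfrp2, -2.45 for Sfrp4, 5.48 for Sfrp5, -1.22 for Rspo1, -3.47 for Rspo2 and 1.17 for Rspo3. In the CM libraries Wnt8a and Sfrp4 were low, with at most 19 and 28 reads in any of them, and neither was called against WT.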

How the results depend on the processing

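No paired analysis was possible because the deposited tables hold no values by replicate number, and the recovered libraries cannot be tied to the numbers in the labels. With an absolute log2 fold change of at least 0.5, called members numbered 5 in naive KO #8, 1 in primed KO #8, 11 in NPC KO #4 and 5 in both clones in naive cells. At an adjusted p under 0.01, 1 was called in primed KO #8. Of the called members, limma leaves out naive Fzd5, Fzd7 and Sfrp1, NPC Sfrp1 and CM Wnt10a. The limma counts were 2 in primed KO #4, 7 in primed KO #8, 8 in NPC KO #4, 1 in both clones in primed cells and 5 in both in NPCs. With a pseudocount of 2 they were 2, 7 and 9 for the first 3 of these. Relative to the chromosome 8 median, Sfrp1 was at -0.28 in naive KO #4, -0.26 in naive KO #8, -0.10 in primed KO #8 and -0.0125 in CM KO #8. Its sign was thus negative there, with the CM KO #8 value near 0. The cause of this and of the other shifts was not tested.

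With 1 library left out (limma), called members ranged from 7 to 10 in naive KO #4, 6 to 8 in naive KO #8, 1 to 3 in primed KO #4, 3 to 5 in primed KO #8, 1 to 2 in NPC KO #4, 3 to 21 in NPC KO #8, 22 to 25 in CM KO #4 and 9 to 23 in CM KO #8. Differences between the clones ranged from 0 to 4 in naive cells, 0 to 1 in primed cells, 1 to 20 in NPCs and 25 to 29 in CMs. For limma against WT, and for clone differences with 1 library left out, the share of all genes called was not counted. A base mean of at least 50 and a new adjustment over all genes kept each count within 1.5 times. Of 93 log2 fold changes, the ratio of group means moved 33 by more than their standard error and reversed none. Members with few reads had no adjusted p in the deposited tables and were not tested, 24 of 41 in primed cells of either clone.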
